A study of Mus musculus with 6 samples.

Results

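The enzymes that make serine and pass its one-carbon unit to folate and on to methionine were measured by microarray in mouse glial cells with and without the H3.3-K27M histone mutation. The 10 genes were chosen by name as steps of this route, with earlier results of these data known. They are *Phgdh*, *Psat1* and *Psph* of serine synthesis, *Shmt1* and *Shmt2* of serine cleavage, *Mthfd1*, *Mthfd2* and *Mthfd1l* of folate interconversion, and *Mat2a* and *Ahcy* of the methionine cycle. Their probes were found through the RefSeq accession that each spot carries, which gave 17 probes among the 32994 probes that could be named, and 10 genes among 22911. Signals of all 10 genes were flagged as well above background on the 5 arrays that carried this flag, and all 10 were among the 14898 genes tested. Each gene is described by its brightest probe, and a further probe is given where the gene had one.

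Both groups were OS3 cells, an SV40-immortalized glial line that was derived from the brain of newborn mice of the strain C3H/HeN, given in the labels as male C3H. WT cells carried the empty vector and IG27 cells carried the plasmid for H3.3-K27M, in which the lysine at residue K27 of histone H3.3 is replaced by methionine. Both were grown for 2 days in MEM-α with GlutaMAX, 10% fetal bovine serum, 5 µg/ml insulin, 0.2% glucose and antibiotics at 37 °C under 5% CO2, and RNA was taken from 3 dishes of each. The comparison asks how the mutant line differs in expression from the vector line; because the dishes of a group are dishes of one line, the p-values measure the spread between dishes, and differences between lines that are unrelated to the mutation cannot be told apart from its effect. The cells were selected with a drug after transfection and clones were raised from them, and whether IG27 is 1 clone is not given in the sources used here. *H3f3a* itself was lower in IG27 cells by -0.26 on the log2 scale (limma adjusted p = 0.0237); no probe reads the mutation, and whether this one covers the plasmid's transcript is not known, so it does not check the label.

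Serine is built from a glycolytic intermediate in a short chain of reactions, and the SHMT enzymes then split it into glycine and a one-carbon unit that is loaded onto tetrahydrofolate. The folate cycle runs in parallel in the mitochondria and in the cytosol: the mitochondrial arm releases the unit as formate, and the cytosolic arm uses formate to feed purine and thymidylate synthesis and the remethylation of homocysteine to methionine. Mat2a turns methionine into S-adenosylmethionine, the methyl donor of DNA and histone methyltransferases, and Ahcy removes the S-adenosylhomocysteine that these reactions leave behind. In gliomas and other tumors this route is known as a source of nucleotide precursors and methyl groups.

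Levels are given as the log2 of the background-corrected signal minus the array's own 75th percentile, so that 0 is the brightness of the spot at that percentile, and they can be compared between arrays for one gene but not between genes, whose probes differ in brightness per transcript. A gene is called where limma gave a Benjamini-Hochberg adjusted p under 0.05 over all 14898 genes. Between the lines the background of change was broad, with 70.5% of all genes called, 30.5% higher and 40.0% lower in IG27 cells. Of the 10 enzymes, 5 were called: *Mthfd1l*, *Shmt1* and *Shmt2* were higher, *Mat2a* and *Ahcy* were lower, and the other 5 were not called. The groups did not overlap for 6 of the 10, against 75.7% of all genes, and 1 of the 10 (*Mthfd1l*) was called with at least a 2-fold change, against 23.1% of all genes. These shares were below those of all genes, but 10 genes are too few to read this as a trait of the enzymes, and it was not tested. It also changed with scaling: with each array scaled to its median, 2 enzymes were higher and 5 lower, against 10982 of 14898 genes called. The median log2 fold change was 0.00 over the 10 enzymes and -0.07 over all genes tested, and the median SD within a group was 0.07 over the enzymes and 0.09 over all genes.

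**Figure D1:**
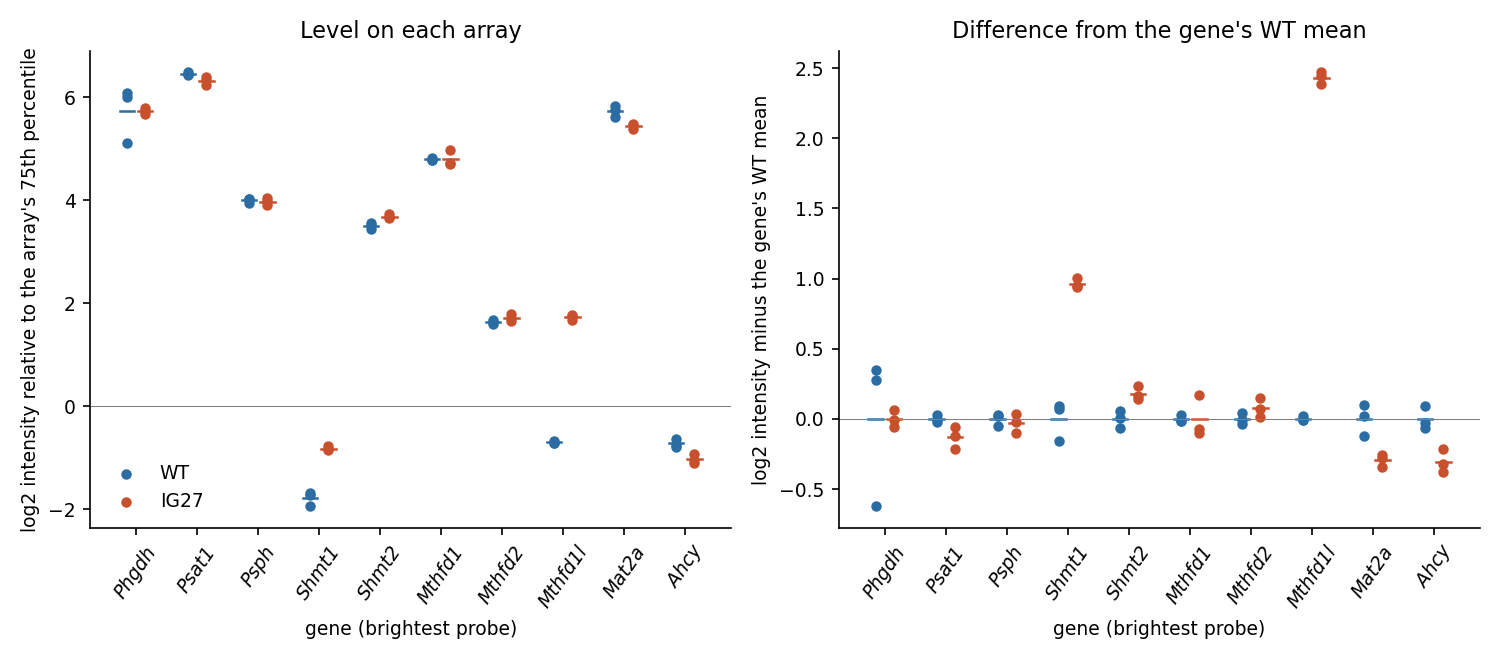
Left, the log2 level of each of the 10 enzymes on the 3 WT (blue) and 3 IG27 (red) arrays, relative to the array's 75th percentile; right, the same values minus the gene's WT mean; dots are arrays and bars are group means, and levels on the left cannot be compared between genes. *Mthfd1l* stands 2.43 above its WT mean and *Shmt1* 0.96, the others lie within 0.31 of theirs on average, and *Phgdh* has 1 WT array well below the other two.

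The largest change by far was in *Mthfd1l*, the mitochondrial enzyme that releases formate from the folate carrier. Its level was -0.68, -0.71 and -0.71 in the 3 WT dishes and 1.68, 1.74 and 1.77 in the 3 IG27 dishes. The dishes of each group were nearly alike and the groups lay far apart. The log2 fold change was 2.43 (SE 0.05, 95% interval 2.32 to 2.55, n = 3 each), a 5.40-fold higher signal in IG27 cells (interval 4.99 to 5.84, limma adjusted p = 1.98e-07), which ranked 1111 of 14898 genes by size, with 92.5% of genes changing less. *Mthfd1l* remained called, at log2 fold changes of 2.19 to 2.47, under each of the 18 other ways of processing or choosing the arrays. The other probe of the gene, designed on a predicted transcript, was not well above background on any array with this flag and could not be used. *Mthfd1l* lies on chromosome 10, whose 682 tested genes had a median log2 fold change of 0.08.

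Its cytosolic and mitochondrial neighbors in folate interconversion were not called. *Mthfd1*, which carries out the matching steps in the cytosol on one polypeptide, read 4.79, 4.79 and 4.82 in WT and 4.97, 4.73 and 4.70 in IG27 cells. The first IG27 dish lay above and the other two below all WT dishes, so that the groups overlapped, and the log2 fold change was 0.00 (SE 0.08, interval -0.20 to 0.20, adjusted p = 0.985). The second probe of *Mthfd1* gave -0.28 (adjusted p = 0.0694 over probes), and neither was called. *Mthfd2*, the mitochondrial dehydrogenase and cyclohydrolase that acts just before Mthfd1l, read 1.59, 1.62 and 1.68 in WT and 1.78, 1.71 and 1.64 in IG27 cells. Its groups overlapped too, at a log2 fold change of 0.08 (SE 0.06, interval -0.06 to 0.22, adjusted p = 0.247), and its second probe gave 0.10. These intervals hold for the brightest probe under the main scaling; with median scaling *Mthfd1* was at -0.24 (adjusted p = 0.0351). Under quantile normalization *Mthfd2* was called, at 0.19 (adjusted p = 0.0155), and under scaling to the median it read -0.16.

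The difference in change between these enzymes was tested on each array's own difference of log2 levels, which a shift of a whole array cannot alter. From WT to IG27 cells the difference between *Mthfd1l* and *Mthfd1* rose in all 3 dishes above all WT dishes, by 2.43 on average, while that between *Mthfd2* and *Mthfd1* shifted by 0.08 with overlapping groups. With 3 dishes against 3 the exact two-sided permutation test cannot give a p under 0.1, which *Mthfd1l* against *Mthfd1* reached (0.3 after Benjamini-Hochberg adjustment over the 6 pairs of enzymes compared). For *Mthfd2* against *Mthfd1* the exact permutation p was 0.3 (adjusted 0.6).

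*Shmt1*, the cytosolic serine hydroxymethyltransferase, was the other enzyme with a clear rise. It read -1.69, -1.72 and -1.95 in WT and -0.84, -0.85 and -0.78 in IG27 cells. All IG27 dishes were above all WT dishes, with a log2 fold change of 0.96 (SE 0.08), which is 1.95-fold (95% interval 1.71 to 2.23, adjusted p = 7.26e-05). The gene's dimmer probe read -3.52, -3.49 and -3.65 in WT and -3.13, -3.18 and -3.26 in IG27 cells. It also separated the groups, but by a smaller log2 difference of 0.37 (adjusted p = 0.00294 over probes). *Shmt1* was called under all 18 alternatives, at 0.67 to 1.01, and 75.2% of all genes changed less than its brightest probe.

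*Shmt2*, the mitochondrial enzyme for the same reaction, differed much less. It read 3.51, 3.44 and 3.56 in WT and 3.66, 3.64 and 3.73 in IG27 cells. The groups did not overlap and the log2 fold change was 0.18 (SE 0.05, interval 0.05 to 0.31, adjusted p = 0.0246), or 1.13-fold. This call was narrow: without WT replicate 1, WT replicate 2 or IG27 replicate 3 the adjusted p was 0.0575, 0.0695 and 0.0749, and with each array scaled to its median the value was -0.06 (adjusted p = 0.539). A second, dim probe on another transcript of *Shmt2* read -5.03, -5.08 and -5.44 in WT and -4.37, -3.31 and -4.13 in IG27 cells. It was higher in every IG27 dish, by 1.25 on the log2 scale (adjusted p = 0.00783 over probes), with a wide spread among them, so the probes share the direction but not the size. Taken within each array, the difference between *Shmt2* and *Shmt1* fell by 0.78 from WT to IG27 cells with no overlap between the groups, since *Shmt1* rose more (exact permutation p = 0.1, the smallest possible, adjusted 0.3).

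The serine synthesis enzymes showed no called change. *Psat1*, the aminotransferase in the middle of the chain, read 6.48, 6.42 and 6.44 in WT and 6.39, 6.23 and 6.33 in IG27 cells. Every IG27 dish was below every WT dish, yet the log2 fold change was only -0.13 (SE 0.06, interval -0.27 to 0.01, adjusted p = 0.0818), and the second probe gave -0.06. *Psph*, the phosphatase of the last step, read 4.03, 3.95 and 4.02 in WT and 3.98, 4.03 and 3.90 in IG27 cells. Its groups overlapped, with a log2 fold change of -0.03 (SE 0.06, interval -0.16 to 0.11, adjusted p = 0.663). With median scaling both were called lower, *Psat1* at -0.37 (adjusted p = 0.00262) and *Psph* at -0.27 (adjusted p = 0.0144).

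*Phgdh*, the dehydrogenase that opens the chain, was measured with far less precision. It read 5.10, 6.003 and 6.07 in WT and 5.79, 5.72 and 5.67 in IG27 cells, so that the first WT dish lay below and the other two above all IG27 dishes. The SD was 0.54 in WT and 0.06 in IG27 cells, and the log2 fold change of -0.001 had an interval of -0.63 to 0.63 (adjusted p = 0.998), wide enough to hold a change of 1.55-fold in either direction. This mean rests on 1 dish: without WT replicate 1 the log2 fold change was -0.31 and was called (adjusted p = 0.00827). No second probe of *Phgdh* was named, so the value of that dish could not be set against another probe. The within-array differences of *Psat1* and of *Psph* from *Phgdh* shifted by -0.13 and -0.03, with overlapping groups and an exact permutation p of 1 for each.

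Both methionine cycle enzymes fell slightly. *Mat2a*, which makes S-adenosylmethionine, read 5.75, 5.61 and 5.83 in WT and 5.38, 5.45 and 5.47 in IG27 cells. All IG27 dishes were lower, by -0.29 on the log2 scale (SE 0.07, interval -0.46 to -0.13, adjusted p = 0.009), a 1.23-fold lower signal. *Ahcy* read -0.63, -0.79 and -0.75 in WT and -0.94, -1.04 and -1.10 in IG27 cells. It too was lower in every IG27 dish, by -0.31 (SE 0.07, interval -0.47 to -0.14, adjusted p = 0.00744), or 1.24-fold. The second probe of *Mat2a* gave -0.13 (adjusted p = 0.101 over probes), in the same direction but not called. The pair shifted together, by 0.01 in the within-array difference of *Mat2a* and *Ahcy* (exact permutation p = 1). The slide carried WT replicates 1 and 3 in its upper row and the other 4 arrays in its lower row; with the row as a block, which compares IG27 cells with WT replicate 2 alone, *Mat2a* was at -0.18 (adjusted p = 0.1) and *Ahcy* at -0.24 (adjusted p = 0.0854).

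**Figure D2:**
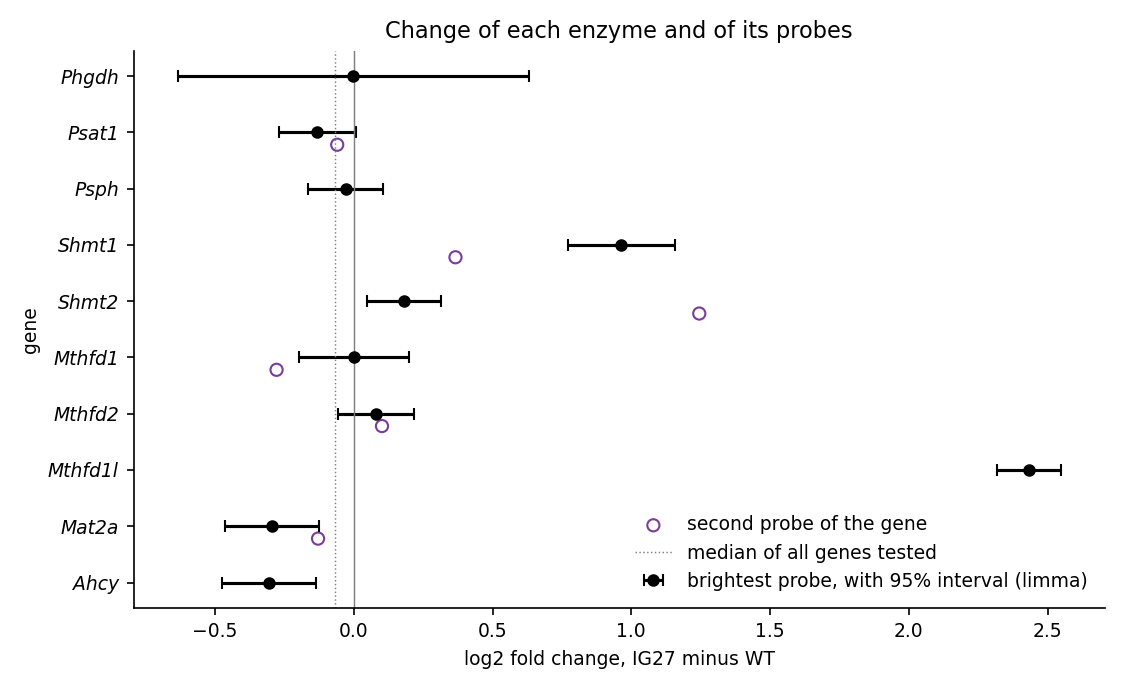
Log2 fold change (IG27 minus WT) of the brightest probe of each enzyme with its 95% interval from limma (black), of the second probe where one passed the filter (open circles), and the median of all genes tested (dotted line). *Mthfd1l* (2.43) and *Shmt1* (0.96) lie clear of 0, the wide interval of *Phgdh* runs from -0.63 to 0.63, and the second probe of *Shmt2* (1.25) lies far above its first (0.18).

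The lower calls sat on chromosomes whose genes were lower as a whole. The 1149 tested genes of chromosome 2, which holds *Ahcy*, had a median of -0.34, and the 705 of chromosome 6, which holds *Mat2a* and *Mthfd2*, had a median of -0.21. Set against these medians, *Ahcy* was at 0.03, *Mat2a* at -0.08 and *Mthfd2* at 0.29. *Mthfd1l* and *Shmt1* were at 2.35 and 1.08 above the medians of chromosomes 10 and 11, while *Shmt2*, also on chromosome 10, was at 0.10. Among the serine synthesis genes, *Phgdh* on chromosome 3 (median -0.31) was at 0.31. That value rests on WT replicate 1, without which the log2 fold change of *Phgdh* was -0.31. *Psat1* on chromosome 19 (median 0.18) was at -0.31 and *Psph* on chromosome 5 at -0.06. The part of such chromosome-wide shifts in the values of single genes was not tested.

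The promoters shown are those of *Mthfd1l* (largest rise), *Shmt1* (next largest) and *Mthfd1* (not called, in the same folate steps as *Mthfd1l*). They are the 250 bases before the transcription start in RefSeq on mouse build GRCm38.p6, in the 5′ to 3′ direction of the gene, with CCAAT (or ATTGG on the other strand) and GGGCGG (or CCGCCC) in capitals. The *Mthfd1l* promoter is chr10:3972825-3973074 on the plus strand, that of *Shmt1* is chr11:60811266-60811515 on the minus strand, and that of *Mthfd1* is chr12:76254982-76255231 on the plus strand.
Mthfd1l: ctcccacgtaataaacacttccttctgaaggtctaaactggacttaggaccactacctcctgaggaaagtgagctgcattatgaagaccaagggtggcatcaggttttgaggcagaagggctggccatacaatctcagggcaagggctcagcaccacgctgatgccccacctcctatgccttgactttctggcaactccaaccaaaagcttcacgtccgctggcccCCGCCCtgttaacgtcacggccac
Shmt1: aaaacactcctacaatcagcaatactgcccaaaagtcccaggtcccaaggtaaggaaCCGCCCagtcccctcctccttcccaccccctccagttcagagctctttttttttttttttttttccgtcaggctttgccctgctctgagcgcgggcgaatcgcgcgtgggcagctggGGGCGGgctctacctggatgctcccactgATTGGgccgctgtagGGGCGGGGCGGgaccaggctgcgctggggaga
Mthfd1: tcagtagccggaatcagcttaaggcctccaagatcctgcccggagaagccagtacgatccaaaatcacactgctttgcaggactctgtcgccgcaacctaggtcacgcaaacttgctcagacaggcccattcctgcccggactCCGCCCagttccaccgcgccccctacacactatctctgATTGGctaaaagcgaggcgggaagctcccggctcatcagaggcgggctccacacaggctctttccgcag
The *Mthfd1l* window held 7 CpG dinucleotides, 1 GGGCGG match and no CCAAT match. That of *Shmt1* held 13 CpG, 4 GGGCGG matches and 1 CCAAT match, and that of *Mthfd1* held 15 CpG and 1 match of each.

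RefSeq gave 11 promoters for the 10 enzymes, *Psat1* having 2. Their median was 13 CpG per 250 bases and 59.2% G and C, against 6 and 52.4% over all 32851 promoters. CCAAT on either strand was in 8 of the 11, against 33.8% of all promoters, the exceptions among the genes being *Shmt2* and *Mthfd1l*. GGGCGG was in 7 of the 11, against 32.7%. TGACNNNGC, the core letters of an NRF2 site, was in 1 of the 11 (*Phgdh*), against 10.2%. Neither TGATGNAA, the composite element read by ATF4, nor the E-box CACGTG was in any of the 11, and they were in 3.5% and 6.0% of all promoters. These are matches of letters in a short window, and none of the 5 motifs was in all called enzymes and in none of the others, or the reverse.

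Around the 10 enzymes, 112 related genes were listed by step, of which 103 were tested, 39 were higher, 38 were lower and 26 were not called. Their median log2 fold change was -0.05, close to that of all genes. Of all 14898 genes tested, 30.5% were higher and 40.0% lower. The counts of each group below are to be read beside these shares. Whether a group departs from them was not tested. The genes below are those of largest called change in each group and a few at steps that adjoin the enzymes.

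The other folate enzymes and carriers were mostly lower. Of 15 tested, 10 were lower, 4 were higher and 1 was not called, with a median of -0.52. Among all genes tested, 40.0% were lower and 30.5% higher. The proton-coupled folate transporter *Slc46a1* fell most, from 1.56, 1.40 and 1.42 in WT to -1.35, -1.36 and -1.50 in IG27 cells. The change of -2.86 (SE 0.07, adjusted p = 4.41e-07) was the same on both of its probes. The folate receptor *Folr1* fell by 2.11 on the log2 scale (adjusted p = 3.94e-05). The formyltetrahydrofolate dehydrogenases fell in both compartments, the cytosolic *Aldh1l1* by 1.72 (adjusted p = 0.00486), with IG27 values spread from -3.54 to -2.14, and the mitochondrial *Aldh1l2* by 0.60 (adjusted p = 0.000857). The mitochondrial folate carrier *Slc25a32* fell by 0.74 (adjusted p = 0.000276) and *Mthfd2l*, a relative of *Mthfd2*, by 0.45 (adjusted p = 0.0115). Thymidylate synthase *Tyms* was higher by 0.25 (adjusted p = 0.0139). Over the 18 alternatives 9 to 11 of the group were lower and 2 to 4 higher.

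Genes of glycine cleavage and serine use went both ways, with 4 of 16 higher, 7 lower and 5 not called (median -0.03). *Gcat*, which cuts a threonine product to glycine, rose by 1.63 (adjusted p = 1.36e-05) and *Gldc*, the decarboxylase of the glycine cleavage system, by 1.18 (adjusted p = 0.00199). *Srr*, serine racemase, fell by 1.25 (adjusted p = 9.14e-06). Of the transporters of serine, glycine and other neutral amino acids, 5 of 12 were higher, 4 lower and 3 not called. The probes of *Slc3a2*, called higher, went both ways (-0.27 and 0.26). So did those of *Slc43a1*, called lower (-0.32 and 0.30), and of *Slc38a1*, not called (-0.68 to 0.06). The glycine transporter *Slc6a9* rose from 2.32, 2.44 and 2.38 to 4.59, 4.58 and 4.52, a 4.54-fold change (adjusted p = 4.37e-07). *Slc1a5*, which carries glutamine and serine, was at least 5.64-fold higher in IG27 cells. It was not well above background on any WT array and passed the filter through IG27 cells only. Its call as higher rests on those dim WT readings, so only a lower bound is given. Such a bound sets the IG27 mean against the mean, over the WT arrays, of the lowest signal that each array flagged as well above background. On the log2 scale that signal was -5.77, -5.53 and -6.01 on the 3 WT arrays. *Sfxn1*, the mitochondrial serine carrier, fell by 0.90 (adjusted p = 5.84e-05). In these groups the split changed with scaling to the median, to 2 higher and 9 lower for glycine and serine use and 2 higher and 6 lower for the transporters.

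In the methionine cycle and its outlets, 6 of 21 genes were higher, 9 lower and 6 not called (median -0.14). *Cth*, the cystathionine gamma-lyase that ends transsulfuration in cysteine, rose from -4.07, -3.97 and -3.92 to 0.41, 0.18 and 0.30. The rise was 4.28 on the log2 scale, or 19.4-fold (SE 0.08, adjusted p = 1.68e-07), and *Cth* was dim in WT cells though well above background. *Cbs*, the enzyme before it, was at 0.10 with overlapping groups (adjusted p = 0.579). *Bhmt*, which remethylates homocysteine with betaine, was at least 2.88-fold higher in IG27 cells. It was not well above background on any WT array, so it passed the filter through IG27 cells only, and its call rests on dim WT readings. Methionine synthase *Mtr* read -0.14 (adjusted p = 0.0565). *Mat2b*, the regulatory partner of Mat2a, was higher by 0.32 (adjusted p = 0.0171) where *Mat2a* was lower. *Mat1a*, the liver form of the enzyme, did not pass the filter on dim probes. *Nnmt*, which spends S-adenosylmethionine on nicotinamide, fell 3.27-fold (log2 fold change -1.71, adjusted p = 2.32e-06). Under scaling to the median 3 genes of the group were higher and 13 lower.

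Of the purine and thymidylate steps that depend on folate or follow it, 5 of 16 were higher, 4 lower and 7 not called (median -0.08). The largest changes were in the inosine monophosphate dehydrogenases, which lead to guanine nucleotides, and they were opposite: *Impdh1* rose by 1.19 (adjusted p = 1.14e-05) and *Impdh2* fell by 1.16 (adjusted p = 4.36e-06). *Dut*, which removes dUTP, fell by 0.82 (adjusted p = 2.17e-05). *Gart* and *Atic*, which take the formyl groups from folate, were at -0.06 (adjusted p = 0.449) and -0.09 (adjusted p = 0.143) and were not called. With median scaling the group had 2 higher and 9 lower.

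ATF4 is a stress transcription factor known to act on serine and one-carbon genes. It was listed with other targets of its own but without the 10 enzymes. Of these 23 tested genes, *Atf4* included, 15 were higher, 4 lower and 4 not called, with a median of 0.71. Among all genes tested, 30.5% were higher and 40.0% lower, with a median of -0.07, and the difference was not tested. *Nupr1* rose from -0.84, -1.16 and -0.89 to 3.56, 3.54 and 3.49, which is 22.5-fold (adjusted p = 2.63e-07). *Trib3* rose by 2.19 (adjusted p = 6.38e-06), *Chac1* by 1.45 (adjusted p = 5.83e-06) and *Asns*, asparagine synthetase, by 0.80 (adjusted p = 0.000382). *Slc7a11*, the cystine transporter, was at least 3.22-fold higher in IG27 cells. It was not well above background on any WT array, so it passed the filter through IG27 cells only, and its call rests on dim WT readings. *Atf4* itself was higher by 0.38 (adjusted p = 0.0345). Of the serine and mitochondrial folate enzymes that are usually counted among ATF4 targets, *Phgdh*, *Psat1*, *Psph* and *Mthfd2* were not called, *Shmt2* was at 0.18 and *Mthfd1l* at 2.43. Over the 18 alternatives 13 to 15 of the 23 were higher and 3 to 7 lower, with a median between 0.47 and 0.81.

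**Figure D3:**
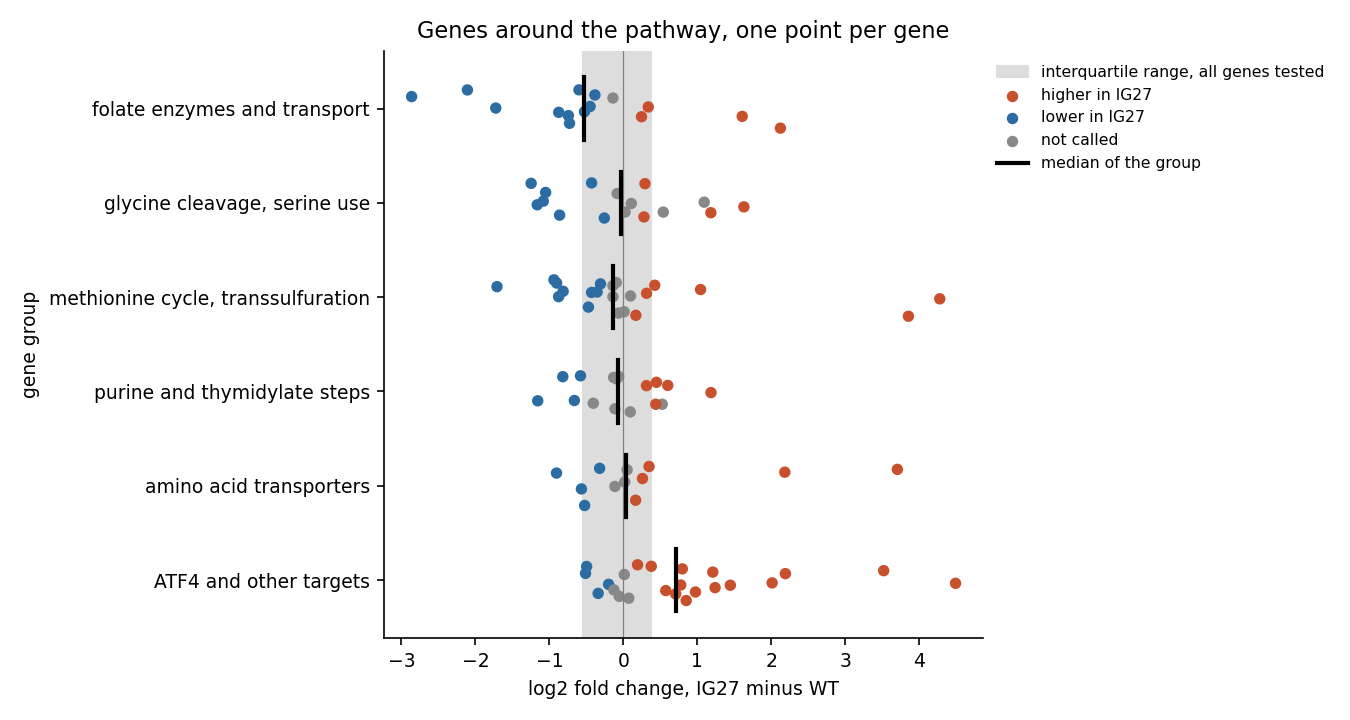
Log2 fold change (IG27 minus WT) of the 103 tested genes around the pathway, one point per gene, by group; red and blue points were called higher and lower by limma, gray points were not called, black bars are group medians, and the shaded band is the interquartile range of all genes tested. The folate group has its median at -0.52 and the ATF4 group at 0.71; *Bhmt*, *Slc1a5* and *Slc7a11*, dim in WT cells, are drawn at their measured differences, of which only lower bounds are given in the text.

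The genes whose pattern over the 6 arrays was most like that of *Mthfd1l*, by the root mean square distance of centered log2 levels, were *Plk3* on chromosome 4 (distance 0.0394, log2 fold change 2.41), *Als2cl* on chromosome 9 (0.0434, 2.41) and *Chst11* on chromosome 10 (0.044, 2.43). With 6 arrays in 2 groups, this likeness says little more than that they rose by the same amount with small spread.

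In such bulk RNA, fewer cells of a type and less RNA per cell cannot be told apart. Of the markers of the glial label, *Gfap*, *Vim*, *Nes*, *Sox2* and *Sox10* were well above background in both lines. *Slc1a3* and *Fabp7* were so in IG27 cells only, and *Gja1* and *Pax6* did not pass the filter. The summed level of the tested markers, as multiples of the array's 75th percentile, was 99.5 to 109 in WT and 69.6 to 76.3 in IG27 cells for 7 of 8 astrocyte genes, 195 to 204 and 159 to 176 for 5 of 6 neural progenitor genes, and 73.8 to 75.9 and 74.8 to 77.4 for all 8 genes of the oligodendrocyte lineage. For other cells it was 149 to 152 in WT and 80.0 to 85.2 in IG27 cells over 4 of 6 fibroblast and pericyte genes (*Col1a2* and *Lum* did not pass), 17.5 to 19.9 and 9.99 to 11.1 over 4 of 7 neuronal genes (*Rbfox3*, *Syt1* and *Gad1* did not pass), 12 to 12.5 and 12.3 to 12.7 over 4 of 6 microglial genes (*Cx3cr1* and *Ptprc* did not pass), and 0.172 to 0.194 and 2.60 to 2.67 over 2 of 5 endothelial genes (*Cdh5*, *Tek* and *Cldn5* did not pass). These sums follow the brightest probe of each list, and single markers went both ways. Among astrocyte genes 3 were higher (*Slc1a3*, *S100b* by 4.93, *Aldoc* by 2.86) and 2 lower (*Gfap* by -1.07, *Slc1a2* by -1.03), among progenitor genes *Fabp7* was higher and *Nes* (-0.50) and *Sox2* (-0.80) lower, and among oligodendrocyte lineage genes 4 were higher and 2 lower. The neuronal sum fell with *Tubb3* (-2.63), while *Map2*, well above background on 1 of 3 WT arrays, was higher. Its difference was 8.03 on the brightest probe, which rests on dim WT readings, and 4.98 on the other probe. The endothelial sum rose through *Kdr* alone, while *Pecam1* was lower by -0.27, and of the fibroblast and pericyte genes *Col1a1*, *Acta2* and *Pdgfrb* were lower and *Dcn* higher. Of these markers *Slc1a3*, *Fabp7*, *Kdr* and *Dcn* passed the filter through IG27 cells only, no WT array showing them well above background. The probes of 3 called markers went both ways: *Gfap* (-1.07 and 0.19), *Mbp* (-2.30 to 0.92) and *Acta2* (-0.51 to 1.12). With the probes of a gene averaged, 3 oligodendrocyte lineage genes were higher and 3 lower, and 2 fibroblast and pericyte genes were higher and 2 lower. The part of the markers in the results was not tested.

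**Figure D4:**
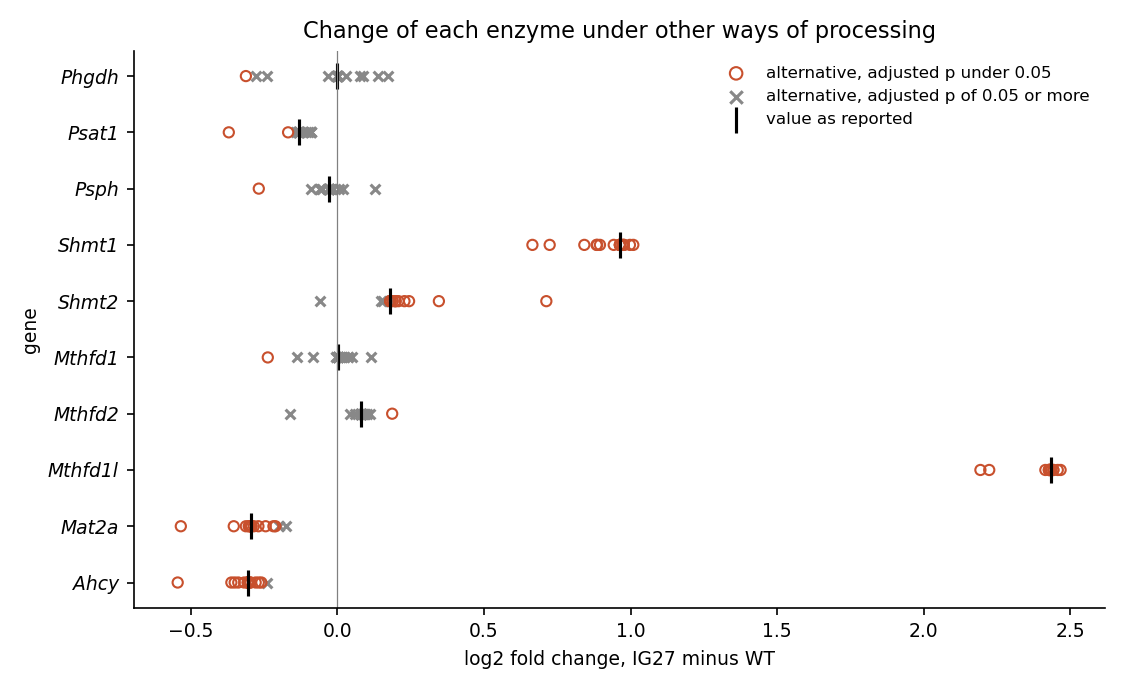
Log2 fold change (IG27 minus WT) of each enzyme as reported (black bar) and under each of 18 alternatives in scaling, filter, background, probes, blocks and arrays left out; circles have an adjusted p under 0.05 and crosses do not. *Mthfd1l* (2.19 to 2.47) and *Shmt1* (0.67 to 1.01) stay called throughout, while *Shmt2* runs from -0.06 to 0.71 and *Phgdh* from -0.31 to 0.17.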

How the data were processed

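Cy3-labeled RNA from each of the 6 dishes was hybridized to 1 array of an Agilent mouse slide. The deposited values are spot intensities: per the file headers, the authors scanned the arrays with Feature Extraction 10.7.3.1 (9.1 in the submitters' processing notes), which subtracts background; they used GeneSpring GX for analysis. Of the 56605 probes that are not controls, 58.8% to 61.2% passed the scanner's background flag on the 5 complete arrays, without saturated spots. The scanner output of IG27 replicate 2 was used here for 285 of 62976 spots only; its values were taken from the deposited value table, whose columns for WT replicates 2 and 3 hold each other's values, so that the scanner labels were used for these. No column lacked a sample.

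The processed signal was put on the log2 scale and centered on the array's 75th percentile. Outlier spots were left out, spots of a probe were averaged, and a probe was kept where all complete arrays of either group passed that flag. Each gene was represented by its brightest probe; adjusted p-values for further probes were taken over all probes. IG27 and WT were compared with lmFit and eBayes (limma 3.58.1, R 4.3.3), two-sided, with Benjamini-Hochberg adjustment over 14898 genes. The code was tested on simulated data. Within-array differences used exact permutation tests. The number of arrays limits the precision.

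The 10 enzymes and the lists were chosen with earlier results of these data known. Of each list, the 3 called genes with the largest change and a fixed set at adjoining steps are named, some of which are not reported here; *Gart*, *Atic*, *H3f3a* and the markers were named after their values were seen. Alternatives in scaling, filter, background correction, probes, variance prior, blocks, thresholds and arrays are given at the end.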

Additional observations from a re-analysis of the deposited data

How the results depend on the processing

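*Mthfd1l* and *Shmt1* kept their direction and call under all 18 alternatives, *Ahcy* under 17 and *Mat2a* under 16. The alternatives are not independent: the 5 complete arrays and leaving out IG27 replicate 2 were the same fit. The variance prior, the replicate block and the filters left the enzymes' fold changes as reported and altered only their p-values. Requiring a 2-fold change left 1 enzyme higher and 0 lower, 17 and 9 related genes, and 1706 and 1739 of all genes. Scaling to the median, which moved the median of all genes from -0.07 to -0.31 and the share of higher calls from 43.3% to 27.6%, gave 5 enzymes lower (*Psat1*, *Psph* and *Mthfd1* besides *Mat2a* and *Ahcy*), 24 related genes higher and 3026 genes higher; *Shmt2* was then at -0.0594, *Mthfd1* at -0.24 and *Mthfd2* at -0.16. Both scalings subtract 1 constant from each array, so values relative to the median of all genes cannot differ between them and are no check. Those values were 2.50 for *Mthfd1l*, 1.03 for *Shmt1*, 0.25 for *Shmt2*, -0.23 for *Mat2a* and -0.24 for *Ahcy*. Quantile normalization gave 1 enzyme lower, with *Mat2a* at an adjusted p of 0.0558, *Phgdh* at 0.0768 and *Psph* at 0.13. With the slide row as a block 0 enzymes were lower and *Psph* was at 0.0204. *Phgdh* was at 0.001 on the 5 complete arrays and 0.0877 with normexp, and *Mthfd1* at -0.14 as the mean of its probes. Without the filter on dim probes 22911 genes were tested, with a median of 0.12, and *Shmt2* was not called (adjusted p = 0.063). Leaving out 1 array at a time gave 2 to 3 enzymes higher and 2 to 3 lower, and log2 fold changes of -0.31 to 0.17 for *Phgdh*, -0.0605 to 0.0052 for *Psph*, 0.15 to 0.21 for *Shmt2* and -0.0829 to 0.0511 for *Mthfd1*; *Psat1* was called without IG27 replicate 1 (-0.17, adjusted p = 0.0431). The cause of these differences was not tested.

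Deviations of same-numbered dishes from their group means were hardly correlated (0.01, 0.04 and 0.08 by the scanner labels). This cannot show whether they were handled together. There were 3 dishes a group, and the value table exchanges the numbers of WT replicates 2 and 3. With the replicate block 10309 genes were called in place of 10501, 3 enzymes were again higher and 2 lower, and 76 of the 77 related calls were kept. The array flags do not give the precision of a single dish, and the levels of genes near background are limited by signal, as for *Bhmt*, *Slc1a5* and *Slc7a11* in WT cells.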
